A study of Caenorhabditis elegans with 6 samples.

Results

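Germ cell apoptosis genes are the genes that bring germ cells to a programmed death, and the 6 described here are ced-3 (C48D1.2), ced-4 (C35D10.9), ced-9 (T07C4.8), egl-1 (F23B12.9), cep-1 (F52B5.5) and ced-1 (Y47H9C.4). They were chosen by sequence name, not by their values, and are 6 of the 45461 genes in the count tables. All 6 were measured in all 6 libraries. The question was whether C. elegans germlines that hold sperm chromosomes only carry an RNA signature of damage or death. With edgeR's quasi-likelihood test, 0 of the 6 genes passed an adjusted p of 0.05 in any comparison. Levels of ced-3, ced-4, ced-9 and cep-1 differed by little between the groups, ced-1 had its highest levels in the red-head F1 libraries without passing the test, and egl-1 rested on few reads.

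Germline RNA was sequenced from 3 groups of 2 libraries each. The red-head F1 group came from crosses of HBR1281 hermaphrodites, which carry TdTomato::H2B and overexpress YFP::GPR-1, to HBR1280 males, which carry oxTi75, a GFP::H2B transgene under the eft-3 promoter. In red-head worms the germline inherited the sperm chromosomes without those of the oocyte, while the oocyte still came from a GPR-1 overexpressing mother. The F2 group came from the offspring of red-head hermaphrodites, and the control group from HBR1280 hermaphrodites whose chromosomes came from both gametes. The analysed germlines of all 3 groups therefore had the HBR1280 genotype. Red-head worms are mosaic, because the other daughter cell of the first embryonic division received the oocyte chromosomes. Somatic cells that descend from it carry HBR1281 chromosomes. Distal arms of oogenic gonads were cut from day 1 adults at the bend where late pachytene cells lie, which is the zone in which physiological germ cell death takes place in this species, and each library pooled arms from several worms. RNA per germ cell and the number of cells of a kind cannot be told apart in such bulk samples.

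Read counts on genes totaled 11310273 and 2721055 in the red-head F1 libraries, 7150847 and 3673141 in the F2 libraries and 7469633 and 4980329 in the control libraries. The 12 germline markers that were checked all passed the filter on low counts, and together they summed to 5929 to 7436 CPM (reads scaled to the effective size of each library) in the 6 libraries. Markers of the gonadal sheath, the somatic cells that wrap the germ cells and engulf their corpses, summed to 92.8 and 70.4 CPM in red-head F1 libraries, 111 and 44.1 CPM in F2 libraries and 97.7 and 54.5 CPM in control libraries. F2 replicate 2 had no read of 3 of the 10 sheath markers, fkh-6, tnt-3 and tni-1. Markers of the intestine summed to 3226 and 6184 CPM in red-head F1 libraries, 1345 and 207 CPM in F2 libraries and 511 and 355 CPM in control libraries. The most abundant of them were the yolk protein genes vit-6 and vit-2. All 9 of the 14 intestine markers that were tested were higher in both red-head F1 libraries than in both control libraries, beside 18.4% of all tested genes, with a median log2 fold change of 3.27, and 0 of the 9 passed edgeR's adjusted p. The marker elt-2 had 5 and 3 reads in red-head F1 libraries, 2 and 0 in F2 libraries and 0 and 0 in control libraries. The part of these other cells in the values below was not tested. Summed muscle markers ranged from 121 to 295 CPM, hypodermis markers from 124 to 157 CPM and neuron markers from 67.2 to 86.0 CPM over the 6 libraries, and hlh-1, which marks body wall muscle, had 0 reads in each.

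In C. elegans the death of a cell is set by a short chain of proteins. The BH3-only protein EGL-1 binds CED-9, a BCL-2 relative that holds CED-4 in check, and the freed CED-4, an APAF-1 relative, activates the caspase CED-3. In the germline, DNA damage acts through CEP-1, the worm p53, which switches on transcription of egl-1 and of a further BH3-only gene, ced-13. Physiological germ cell death needs ced-3 and ced-4 but not egl-1 or cep-1. CED-1 is a receptor on engulfing cells that recognizes the dying cell, so that in a gonad it acts in the sheath. CED-3, CED-4 and CED-9 are mostly controlled as proteins, whereas egl-1 is switched by its transcription.

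The levels of the 6 genes covered a wide range. Per kilobase of exon, ced-3 was the highest, at 112 CPM per kb in red-head F1 germlines, 105 CPM per kb in F2 germlines and 107 CPM per kb in control germlines, above 86.0 to 87.8% of tested genes. Next was ced-9, at 73.5, 78.0 and 75.1 CPM per kb in red-head F1, F2 and control germlines. Then came ced-1, at 56.6, 46.0 and 44.8 CPM per kb in the same groups. Both ced-4, at 34.5, 39.7 and 36.7 CPM per kb, and cep-1, at 34.4, 37.3 and 35.6 CPM per kb, lay near the middle of the tested genes, and they did not differ beyond their spread over the libraries. In F2 replicate 1 ced-1 and ced-4 were also level, at 41.5 and 42.0 CPM per kb. The level of egl-1 was the lowest, at 5.36 CPM per kb in red-head F1 germlines, 1.29 CPM per kb in F2 germlines and 3.52 CPM per kb in control germlines.

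**Figure D1:**
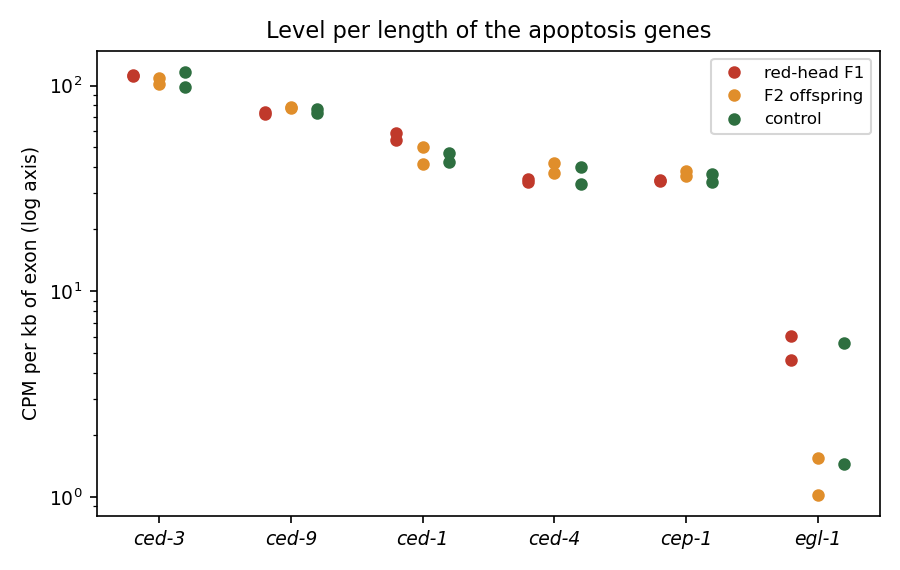
Level of each apoptosis gene per kilobase of exon in CPM per kb on a log axis, with 1 point for each library (red, red-head F1, then orange, F2 offspring, then green, control). In all groups ced-3 (98.0 to 117 CPM per kb) is the highest and egl-1 (1.03 to 6.07 CPM per kb) the lowest, and ced-4 and cep-1 overlap.

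The genes lie on several chromosomes. ced-3 is on chromosome IV, on the minus strand, with 2552 bases of exon and 1 overlapping ncRNA gene, whose reads the kit, which does not mark strand, cannot separate. ced-4 (1864 bases) and ced-9 (1285 bases) are on the plus strand of chromosome III, egl-1 (559 bases) is on the minus strand of chromosome V, and cep-1 (2819 bases, plus strand) and ced-1 (3729 bases, minus strand) are on chromosome I. None of these 5 genes overlaps another annotated gene. Lengths and strands are those of the WBcel235 annotation.

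The caspase gene ced-3 had 288 and 284 CPM in red-head F1 libraries, 258 and 278 CPM in F2 libraries and 250.0 and 297 CPM in control libraries. Both red-head values lie between the control values, and the control libraries differed from each other by more than counting error, with 95% Poisson intervals of 239 to 262 and 283 to 313 CPM. These intervals, here and in the plot of levels by library, cover counting error only. The log2 fold change in red-head F1 germlines against control was 0.07 (95% interval -0.20 to 0.33, edgeR adjusted p = 0.951), and that in F2 germlines against control was -0.03 (-0.30 to 0.24, adjusted p = 0.999).

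The CED-3 activator ced-4 had 65.7 and 63.0 CPM in red-head F1 libraries, 78.3 and 69.6 CPM in F2 libraries and 74.7 and 62.2 CPM in control libraries. The red-head values overlapped those of the control and were both under those of the F2 libraries. Its log2 fold change was -0.09 (-0.41 to 0.23) in red-head F1 germlines against control and 0.11 (-0.21 to 0.43) in F2 germlines against control. In red-head F1 germlines against F2 germlines it was -0.20, at an unadjusted p of 0.187 by edgeR.

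The death inhibitor ced-9 had 95.1 and 93.7 CPM in red-head F1 libraries, 99.9 and 100.6 CPM in F2 libraries and 94.0 and 98.9 CPM in control libraries. The control range overlapped the red-head range, and both F2 values were above both control values. The log2 fold changes were -0.03 (-0.25 to 0.19) in red-head F1 germlines against control and 0.06 (-0.16 to 0.28) in F2 germlines against control.

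The balance between these core genes also differed by little. Per length, the ratio of ced-3 to ced-9 was 1.53 and 1.53 in red-head F1 libraries, 1.302 and 1.39 in F2 libraries and 1.34 and 1.51 in control libraries. The ratio of ced-4 to ced-9 was 0.476 and 0.463 in red-head F1 libraries, 0.540 and 0.477 in F2 libraries and 0.548 and 0.433 in control libraries. For this ratio the red-head values lie within the control range, and for the ratio of ced-3 to ced-9 the nearest control value is 1.51.

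The p53 gene cep-1 had 96.4 and 97.4 CPM in red-head F1 libraries and 108.4 and 102.0 CPM in F2 libraries. In control libraries it had 105 and 95.4 CPM. The red-head values lie within the control range. The log2 fold change of cep-1 was -0.05 (-0.29 to 0.19, edgeR adjusted p = 0.961) in red-head F1 germlines against control and 0.07 (-0.17 to 0.31, adjusted p = 0.999) in F2 germlines against control. CEP-1 is regulated largely as a protein, which RNA counts do not measure.

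The BH3-only gene egl-1, the transcriptional target by which CEP-1 starts germ cell death, was close to the limit of detection. It had 41 and 7 reads in red-head F1 libraries, 6 and 2 reads in F2 libraries and 6 and 16 reads in control libraries, which is 3.40 and 2.59 CPM, 0.866 and 0.573 CPM, and 0.804 and 3.13 CPM in that order of groups. Both red-head values were above both F2 values and control replicate 1, and control replicate 2 lay between them. Control replicate 2 had 3.89 times the level of control replicate 1 (1.45 to 12.1 from counting error alone), a spread wider than counting error alone.

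Group means of egl-1 were 2.99 ± 0.568 CPM in red-head F1 germlines, 0.720 ± 0.207 CPM in F2 germlines and 1.97 ± 1.64 CPM in control germlines (SD, n = 2 each). The log2 fold change in red-head F1 germlines against control was 0.69 (SE 0.73, 95% interval -1.03 to 2.40, edgeR adjusted p = 0.895), a fold of 1.61 with an interval of 0.490 to 5.29. It was -0.04 without control replicate 1 and 1.90 without control replicate 2, so that 1 control library set the value. For F2 germlines against control it was -1.32 (SE 0.85, -3.30 to 0.66, adjusted p = 0.999), and it lay between -2.04 and -0.11 when each library was left out in turn. Against F2 germlines, red-head F1 germlines had a log2 fold change of 2.01 (SE 0.82, 0.08 to 3.93), with an unadjusted p of 0.0436 and an adjusted p of 0.469 by edgeR. The gene passed the filter through 3 libraries over 1.65 CPM, 2 of the red-head F1 group and 1 of the control group.

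The other BH3-only gene of the germline damage response, ced-13, was not tested. It had 2 and 0 reads in red-head F1 libraries, 2 and 0 reads in F2 libraries and 0 and 0 reads in control libraries. All of these counts lie under the limit of 3 reads that a count of 0 allows, which was 0.248 to 1.11 CPM in the 6 libraries. At this depth no difference in ced-13 between the groups could be measured.

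The corpse receptor gene ced-1 had 202 and 220.0 CPM in red-head F1 libraries, 155 and 188 CPM in F2 libraries and 158 and 176 CPM in control libraries. Both red-head values were above every F2 and control value. Means were 211 ± 12.6 CPM in red-head F1 germlines, 171 ± 23.8 CPM in F2 germlines and 167 ± 12.4 CPM in control germlines (SD, n = 2 each). The log2 fold change in red-head F1 germlines against control was 0.33 (SE 0.12, 95% interval 0.04 to 0.63), a fold of 1.26 (1.03 to 1.54), with an unadjusted p of 0.0298 and an adjusted p of 0.569 by edgeR. Against F2 germlines it was 0.30 (SE 0.12, 0.01 to 0.59), at an unadjusted p of 0.0453 and an adjusted p of 0.475. The F2 germlines had a log2 fold change of 0.03 (-0.26 to 0.33) against control.

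Without any 1 of the libraries, the value of ced-1 in red-head F1 germlines against control stayed between 0.26 and 0.41 on the log2 scale. Among the markers, those of the sheath cells in which ced-1 acts summed to 92.8 and 70.4 CPM in red-head F1 libraries. Both sums lie between those of the control libraries, 97.7 and 54.5 CPM. The median sheath marker had a replicate SD of 0.88 on the log2 scale. That is wider than the 0.33 of ced-1, so these markers cannot measure a change of that size. Those of the intestine were higher in both red-head F1 libraries than in both control libraries. The hypodermis sum was also higher, at 136 and 157 CPM in red-head F1 libraries against 127 and 124 CPM in control libraries. Most of this sum was lin-26, at 113 and 111 CPM in red-head F1 libraries, with a log2 fold change of 0.15 against control. Of the 4 tested hypodermis markers, lin-26 and elt-1 were above both control libraries in both red-head F1 libraries. The values of col-19 and bli-1 overlapped those of the control, so the markers did not move as a set. The part of sheath, intestinal or hypodermal RNA in the ced-1 value was not tested.

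**Figure D2:**
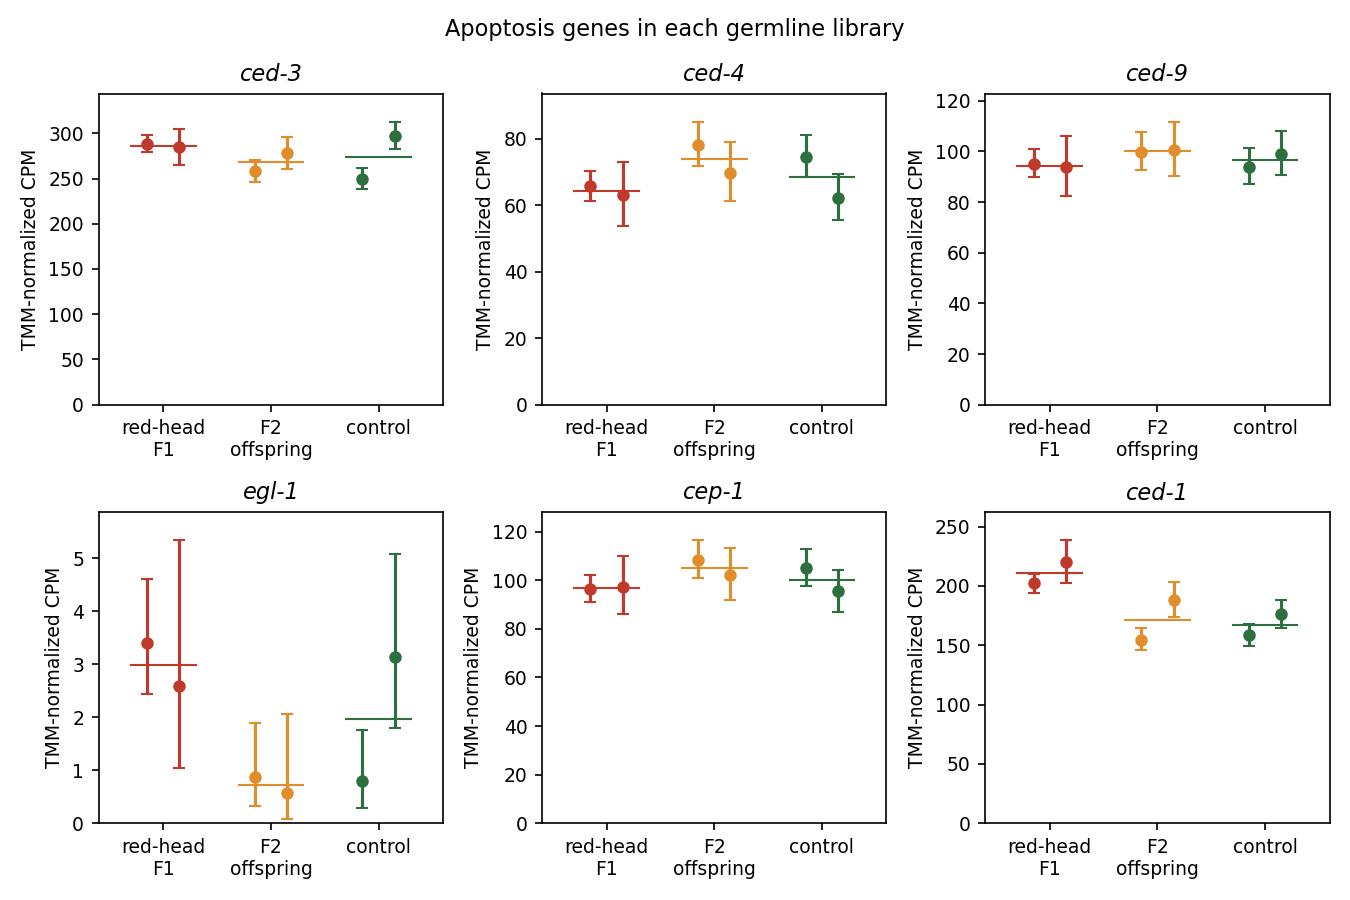
TMM-normalized CPM of each gene (vertical axis from 0, a scale for each panel) in the 6 libraries, with points for libraries, bars for 95% Poisson intervals and lines for group means. ced-1 is 202 and 220.0 CPM in red-head F1 libraries, above the other 4 libraries (155 to 188 CPM), and egl-1 stays under 3.5 CPM in all.

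Set side by side, 0 of the 6 genes was called in red-head F1 germlines against control, where edgeR called 0% of the 8117 tested genes. Between F2 and control germlines 0 of 6 was called, against 0.123% of tested genes, and in red-head F1 germlines against F2 germlines 0 of 6 was called, against 0.0123% of tested genes. At an unadjusted p under 0.05 the numbers were 1 of 6 (ced-1) in red-head F1 germlines against control, 0 of 6 in F2 germlines against control and 2 of 6 (egl-1 and ced-1) in red-head F1 germlines against F2 germlines, beside 7.65%, 1.29% and 10.2% of tested genes in the same order. DESeq2 called none of the 6 genes in the 3 comparisons, and 0.968%, 0.194% and 1.54% of the genes it tested.

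**Figure D3:**
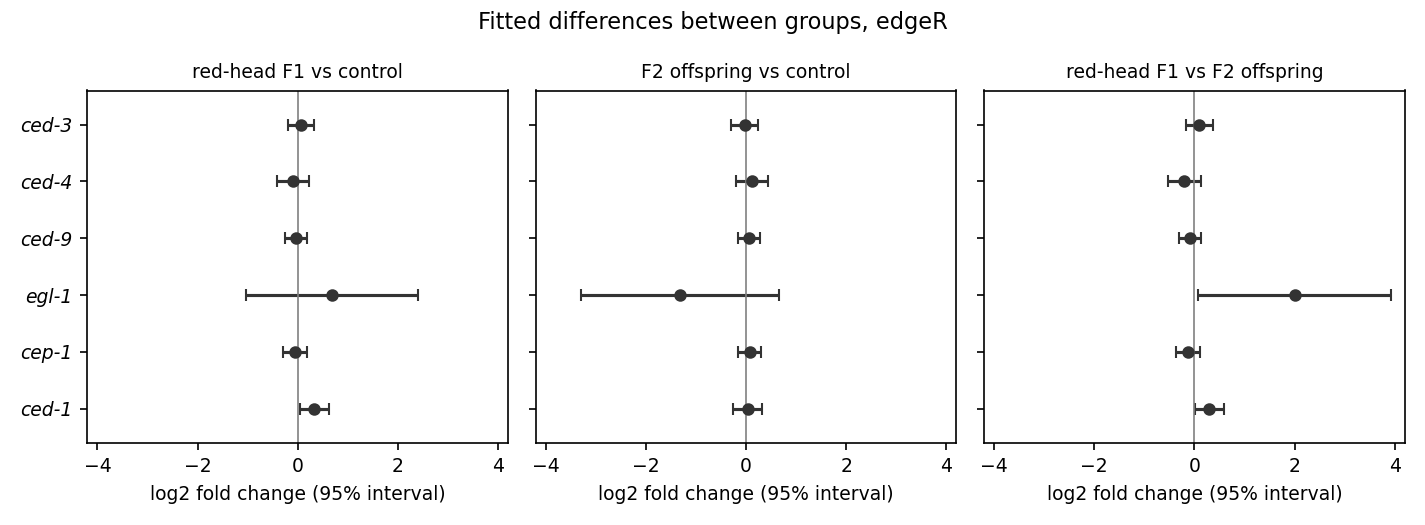
Log2 fold change of each gene with its 95% interval from the edgeR fit, for red-head F1 against control, F2 offspring against control and red-head F1 against F2 offspring. Intervals of ced-3, ced-4, ced-9 and cep-1 include 0 in each panel, that of ced-1 starts at 0.04 in the left panel, and that of egl-1 runs from -1.03 to 2.40 there.

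Library values did not overlap between red-head F1 and control germlines for 1 gene, ced-1, which was above, beside 38% of tested genes in either direction. Between F2 and control germlines 1 gene, ced-9, did not overlap and was above, beside 33% of tested genes. In red-head F1 germlines against F2 germlines none of the 6 genes overlapped: ced-3, egl-1 and ced-1 were above and ced-4, ced-9 and cep-1 were below, beside 37.9% of tested genes, 17.5% above and 20.4% below. The red-head F1 comparisons with control and with F2 germlines share the red-head libraries.

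The library names carry tags whose meaning the sources used here do not give. F2 replicate 1 and control replicate 1 share a tag, and their log2 differences were 0.05 for ced-3, 0.07 for ced-4, 0.09 for ced-9, 0.07 for egl-1, 0.05 for cep-1 and -0.03 for ced-1. Red-head replicate 2 and F2 replicate 2 share another tag, and their differences were 0.03 for ced-3, -0.14 for ced-4, -0.10 for ced-9, 1.53 for egl-1, -0.07 for cep-1 and 0.22 for ced-1. No tag holds both a red-head F1 and a control library, so that tag and group cannot be told apart in that comparison.

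Differences between libraries also moved with gene length. In red-head F1 germlines against control, the median log2 fold change over tested genes was -0.20 for the shortest quintile of exonic length, -0.00 for the middle quintile and 0.06 for the longest quintile. The same medians were -0.02 and 0.02 in F2 germlines against control, for the shortest and the longest quintile, but its libraries ran in opposite directions. Set against the control mean on the log2(CPM + 0.5) scale, the medians for the shortest and the longest quintile were -0.11 and 0.05 in red-head replicate 1, -0.28 and 0.06 in red-head replicate 2, 0.08 and -0.03 in F2 replicate 1, and -0.11 and 0.05 in F2 replicate 2. ced-1, at 0.33 in red-head F1 germlines against control, and cep-1, at -0.05, belong to the longest quintile, and egl-1 to the shortest. The part of length in the values of ced-1 and egl-1 was not tested.

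**Figure D4:**
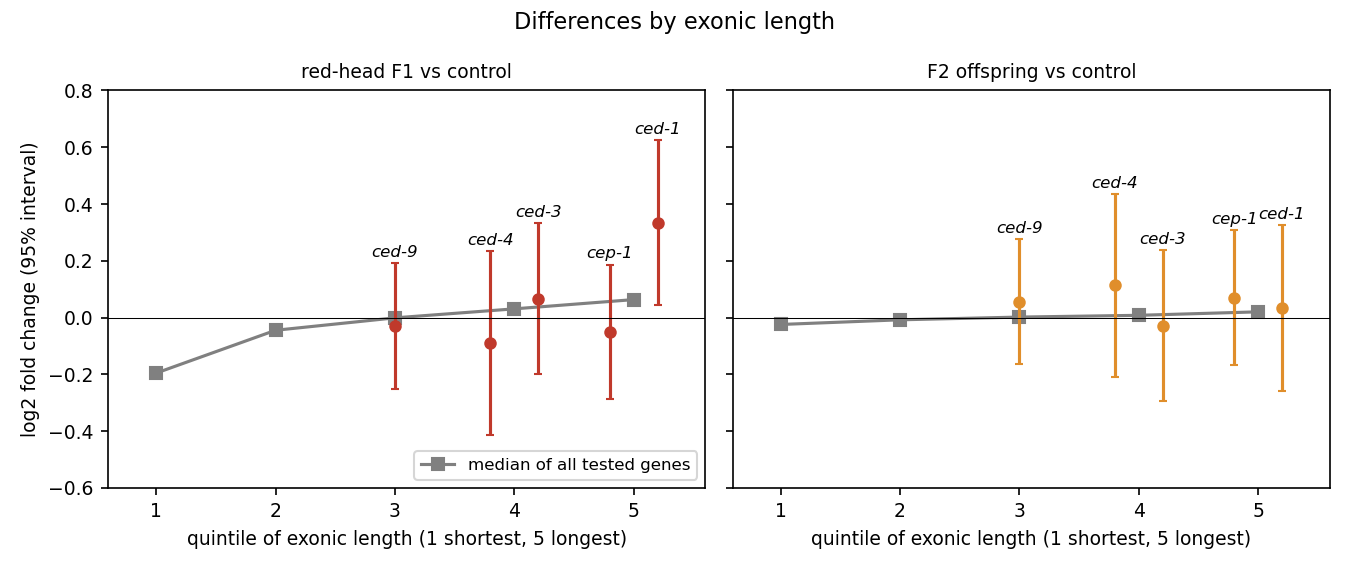
Median log2 fold change of all tested genes (grey squares) by quintile of exonic length, for red-head F1 against control (left) and F2 offspring against control (right), with the apoptosis genes other than egl-1 and their 95% intervals. The grey line runs from -0.20 to 0.06 on the left and from -0.02 to 0.02 on the right, and ced-1 lies at 0.33 on the left.

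Genes that follow the core chain were set beside it as 5 lists from the known biology of death and damage in this species: other death effectors, engulfment and corpse clearance, the DNA damage checkpoint, double-strand break repair, and regulators of CEP-1 and germ cell death. In each list and each comparison, 0 genes passed edgeR's adjusted p of 0.05. DESeq2 called 2 of the listed genes, sand-1 and efl-1, both in red-head F1 germlines against F2 germlines, where it called 1.54% of the genes it tested. Without the filter on low counts edgeR called efl-1 in red-head F1 germlines against control, beside 1.51% of the 23478 genes then tested. It called none of the listed genes in F2 germlines against control, beside 0.29%. In red-head F1 germlines against F2 germlines it called efl-1, sand-1 and gld-1, beside 1.63%. In that last comparison, with the filter, 1 of 15, 5 of 26, 0 of 16, 3 of 21 and 2 of 26 tested genes had an unadjusted p under 0.05 by edgeR. The lists are in the order given, and 10.2% of all tested genes passed the same threshold.

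Of 19 other death effectors 15 were tested. Their median log2 fold change in red-head F1 germlines against control was 0.08, beside -0.01 for all tested genes, and no unadjusted p was under 0.05 (0 of 15). The largest value, 0.86, was that of scrm-1, a phospholipid scramblase, with 7.45 and 7.41 CPM in red-head F1 libraries, 3.03 and 4.01 CPM in F2 libraries and 4.42 and 3.71 CPM in control libraries. The lowest, -1.07, was that of the caspase relative csp-2, at 0.331 and 2.59 CPM in red-head F1 libraries and 2.81 and 1.76 CPM in control libraries. For F2 germlines against control the median was -0.04 beside 0.00 for all tested genes, from -1.19 for ced-8, which exposes phosphatidylserine, to 0.22 for the AIF relative wah-1. The untested genes were ced-13, the caspase relative csp-3 and the nuclease genes nuc-1 and crn-6. Of these nuc-1 had the most reads, 17 and 6 in red-head F1 libraries, 6 and 2 in F2 libraries and 4 and 1 in control libraries.

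Of 27 genes for engulfment and corpse clearance 26 were tested, and ttr-52, with at most 2 reads in a library, was not. The median log2 fold change was 0.05 in red-head F1 germlines against control and -0.03 in F2 germlines against control. The edgeR test gave 3 of the 26 genes an unadjusted p under 0.05 in red-head F1 germlines against control, beside 7.65% of all tested genes. All 3 were above the control. They were src-1, a kinase downstream of an engulfment integrin, at 0.35, sand-1, which brings RAB-7 to the phagosome, at 0.38, and lst-4, a sorting nexin, at 0.29. sand-1 had 152 and 134 CPM in red-head F1 libraries, 100.2 and 94.0 CPM in F2 libraries and 109 and 111 CPM in control libraries, and its red-head values were above all others. In red-head F1 germlines against F2 germlines, where DESeq2 called sand-1, edgeR's adjusted p was 0.278. The extremes of the list in red-head F1 germlines against control were nrf-5, a lipid-binding protein gene, at 0.87, and the phagosome GTPase gene rab-14 at -0.35. Those in F2 germlines against control were the Rac GTPase gene ced-10 at 0.27 and rab-14 at -0.68. Only ced-10, 1 of the 26, had an unadjusted p under 0.05 by edgeR there, beside 1.29% of all tested genes. nrf-5, rab-14 and scrm-1 had under 20 CPM in every library, and nrf-5 passed the filter through the 2 red-head F1 libraries alone, at 1.74 and 1.85 CPM.

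All 16 DNA damage checkpoint genes were tested. The median log2 fold change was -0.03 in red-head F1 germlines against control and 0.07 in F2 germlines against control, and edgeR's unadjusted p was under 0.05 for 0 of them in each of the 3 comparisons. In red-head F1 germlines against control the values ran from -0.29 for brd-1, the BARD1 relative, to 0.26 for hpr-17, which loads the checkpoint clamp. hpr-17 had 82.1 and 87.0 CPM in red-head F1 libraries, 78.1 and 75.4 CPM in F2 libraries and 75.1 and 65.9 CPM in control libraries. The range in F2 germlines against control was from -0.16 for the clamp gene hus-1 to 0.28 for the kinase gene chk-2. Library values did not overlap between red-head F1 and control germlines for 4 of the 16 genes above and 4 below, beside 18.4% and 19.6% of tested genes.

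All 21 genes for double-strand break repair were tested, and here the median log2 fold change in red-head F1 germlines was 0.13 against control and 0.13 against F2 germlines, beside -0.01 for all tested genes in each. Against control, the F2 germlines had a median of -0.01. Values did not overlap for 10 genes above and 4 below in red-head F1 germlines against control, beside 18.4% of tested genes above and 19.6% below. Of the 21 genes 47.6% are in the longest quintile of exonic length, where the median over tested genes was 0.06, and the part of length in the list's median was not tested.

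The repair gene polq-1, whose polymerase joins broken ends by short homology, had the largest value in red-head F1 germlines against control, at 0.34 (unadjusted p 0.0255, edgeR adjusted p 0.555). It had 246 and 246 CPM in red-head F1 libraries, 167 and 209 CPM in F2 libraries and 188 and 200 CPM in control libraries. The lowest value, -0.23, was that of the exonuclease gene exo-1 (unadjusted p 0.0431, adjusted p 0.624), with 83.5 and 86.3 CPM in red-head F1 libraries, 101 and 102 CPM in F2 libraries and 99.5 and 99.1 CPM in control libraries. Values of F2 germlines against control ran from -0.17 for cku-80, of the Ku complex, to 0.13 for rad-50, of the MRN complex. The recombinase gene rad-51, chosen after its values were seen, had 111.4 and 119.2 CPM in red-head F1 libraries, 103 and 88.0 CPM in F2 libraries and 98.7 and 99.9 CPM in control libraries. Its log2 fold change in red-head F1 germlines was 0.21 against control (unadjusted p 0.0963, edgeR adjusted p 0.719). Against F2 germlines it was 0.26 (unadjusted p 0.0499, edgeR adjusted p 0.491).

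Of 29 regulators of CEP-1 and germ cell death 26 were tested. The median log2 fold change was 0.03 in red-head F1 germlines against control and 0.01 in F2 germlines against control. The untested genes egl-38, pax-2 and kri-1 had at most 6 reads in a library. The largest value in red-head F1 germlines against control was 2.23 for akt-2, a kinase that restrains damage-induced germ cell death, which had 49 and 12 reads in red-head F1 libraries, 9 and 2 in F2 libraries and 6 and 5 in control libraries. These are 4.06 and 4.44 CPM in red-head F1 libraries against 1.2995 and 0.573 CPM in F2 libraries and 0.804 and 0.978 CPM in control libraries, and the red-head values were above all others. akt-2 was over 1.65 CPM in the 2 red-head F1 libraries alone, so that it entered the test through the group in which it was high. With that limit, edgeR's adjusted p for akt-2 was 0.440.

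The E2F gene efl-1, which acts upstream of germ cell death, had 157 and 224 CPM in red-head F1 libraries, 117 and 79.7 CPM in F2 libraries and 126 and 73.7 CPM in control libraries. Its log2 fold change in red-head F1 germlines against control was 0.91, at an unadjusted p of 0.0161 and an adjusted p of 0.502 by edgeR. Without the filter efl-1 was called in that comparison, at an adjusted p of 3.9e-08, and the other alternatives reached 0.999 and did not call it. In that comparison 2 of the 26 tested genes of this list, efl-1 and akt-2, had an unadjusted p under 0.05 by edgeR. The share over all tested genes was 7.65%. The largest value in F2 germlines against control was 0.26, for the CPEB gene cpb-3, a repressor of germ cell death. Only cpb-3, 1 of the 26, had an unadjusted p under 0.05 by edgeR there, beside 1.29% of all tested genes.

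**Figure D5:**
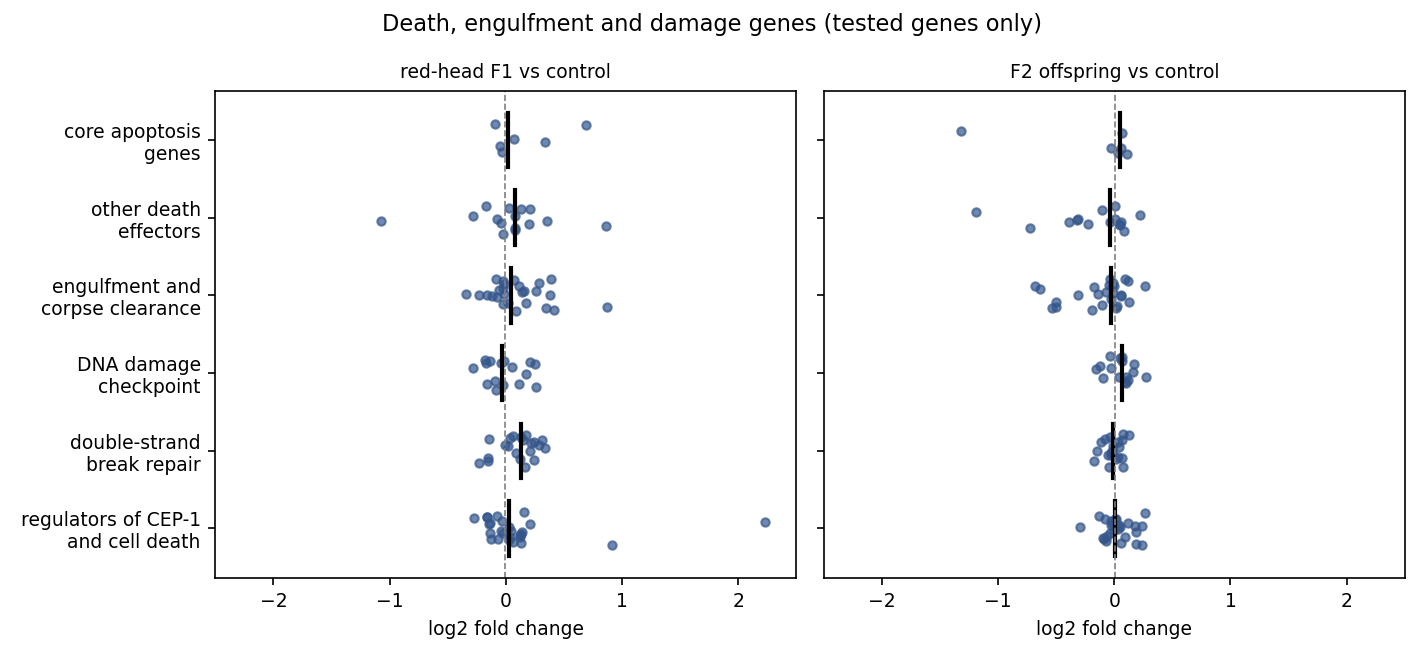
Log2 fold change of each tested gene in 6 lists (points, with small vertical jitter), for red-head F1 against control (left) and F2 offspring against control (right). Black bars mark list medians and the dashed line the median of all tested genes; the repair list has a median of 0.13 on the left and -0.01 on the right, and akt-2 is the point at 2.23.

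For each gene, the tested gene whose log2 CPM followed it most closely over the 6 libraries was found among 8116 others. It was ant-1.3 for ced-3 (Pearson r = 0.986), R144.12 for ced-4 (r = 0.994), unc-93 for ced-9 (r = 0.957), prk-1 for egl-1 (r = 0.988), rpn-3 for cep-1 (r = 0.992) and sea-2 for ced-1 (r = 0.996). These are the highest of many correlations over few libraries, which share depth and tags, and are given as a description.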

How the data were processed

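Libraries of rRNA-depleted total RNA, prepared with a kit that does not mark strand, were made from 6 samples, 2 in each of 3 groups taken from the sample labels. The study calls the libraries biological replicates. The authors aligned reads with TopHat2 to WS220 and deposited HTSeq's whole-number read counts per gene, not normalized. How reads with several alignments were handled is not given in the sources used here. A deposited table of the authors' DESeq2 comparisons (fold changes and p-values) was not used. Rows that name no gene (10.7 to 15.2% of reads unassigned, 1.59 to 2.15% ambiguous) were left out.

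Of 45461 gene names 44936 matched the WBcel235 annotation, used for names, chromosomes, strands and exonic lengths but not for coordinates. The counts were analysed with edgeR 4.0.16 (R 4.3.3). Its filterByExpr kept genes over about 1.65 CPM in at least 2 libraries, TMM set the scaling, and glmQLFit fitted the 6 libraries together. The 3 contrasts were tested with glmQLFTest, with Benjamini-Hochberg adjustment over the 8117 tested genes, and the steps were tested on simulated counts. Standard errors and 95% intervals come from the F statistic. CPM are TMM-normalized, and fold changes are positive where the group named first is higher. DESeq2 1.42.0 and the other alternatives are given in the closing section.

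The members and lists were chosen with earlier results of these data known. The genes named are the 6 members, ced-13, the tested gene with the largest and the one with the lowest log2 fold change against control in each list, and the gene nearest in pattern to each member; 1 gene that this rule names is not reported here. Genes named for an unadjusted p, src-1, sand-1, lst-4 and efl-1 among them, and gld-1, were chosen after their values were seen.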

Additional observations from a re-analysis of the deposited data

How the results depend on the processing

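None of the 6 genes was called where it was fitted in the 3 comparisons under the 13 alternatives, which included DESeq2 and the omission of any 1 library. egl-1 was not fitted with a minimum of 10 counts in every library, nor in F2 germlines against control with only those 4 libraries. Numbers of all genes called moved much more. In red-head F1 germlines against control, F2 germlines against control and red-head F1 germlines against F2 germlines, edgeR called 0, 10 and 1 genes, DESeq2 89, 17 and 128, and edgeR with no filter 355, 68 and 383. With only the libraries compared in the fit, edgeR called 8 genes in red-head F1 germlines against control and 5 in red-head F1 germlines against F2 germlines. RLE scaling gave 6 in the last comparison, as did a minimum of 10 counts in every library, and library size alone gave 4 in F2 germlines against control and 3 in red-head F1 germlines against F2 germlines. Leaving out 1 library at a time gave ranges of 0 to 54, 4 to 14 and 0 to 69, and red-head replicate 2 gave the highest value of the first and the last when left out. The cause was not tested.

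The sample labels do not say that same-numbered libraries form pairs. Deviations of same-numbered libraries correlated at -0.09 (red-head F1 and control), 0.39 (F2 and control) and 0.05 (red-head F1 and F2). F2 replicate 1 and control replicate 1 share a tag, and its part in the value of 0.39 was not tested. A replicate block gave 7, 13 and 7 called genes and 0 of the 6 genes in each comparison.

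Apart from egl-1 in red-head F1 germlines against control, directions turned where fold changes were near 0. Scaling by library size alone, which shifts the median of all genes by -0.08 in F2 germlines against control and by 0.11 in red-head F1 germlines against F2 germlines, gave ced-9 -0.022, cep-1 -0.0060 and ced-1 -0.047 in F2 germlines against control and ced-9 0.021 in red-head F1 germlines against F2 germlines, each a move close to the shift of all genes. Without 1 library, log2 fold changes in red-head F1 germlines against control ranged from -0.058 to 0.20 for ced-3, -0.21 to 0.047 for ced-4, -0.071 to 0.0100 for ced-9, -0.039 to 1.90 for egl-1 and -0.12 to 0.018 for cep-1. In F2 germlines against control they ranged from -0.15 to 0.096 for ced-3, -0.017 to 0.25 for ced-4, -0.0024 to 0.14 for cep-1 and -0.11 to 0.17 for ced-1. With 2 libraries per group and 2721055 reads in the smallest, the edgeR intervals of egl-1 were wide. As a fold, the interval ran from 0.490 to 5.29 in red-head F1 germlines against control. It ran from 0.102 to 1.58 in F2 germlines against control and from 1.05 to 15.3 in red-head F1 germlines against F2 germlines.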
